A study of Mus musculus with 6 samples.

Results

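The 2 control libraries of Chd4 in this series, labelled Ctrl and siSCR, were set against each other peak by peak. They were chosen by their labels alone, as the Chd4 libraries titled Ctrl and siSCR, and they are 2 of the 6 libraries. Their lists held 1154 peaks in Ctrl and 2606 in siSCR, together 3760 of the 97783 peaks deposited. Primary neural stem cells grown from newborn (P0) mouse cortex were profiled by ChIP-seq, in which DNA fixed to a protein is pulled down with an antibody to it and sequenced. Both groups were labelled wild type and kept in growth medium with 20 ng/ml EGF and 20 ng/ml bFGF, and the chromatin was fixed for 10 min in 1% formaldehyde. The labels do not spell siSCR out; it is read here as a scrambled control of RNA silencing, so that the groups would differ in a transfection that the labels do not describe. The other 4 lists, used below for reference, were Chd4 in cells titled iKO (mutant, with 4-OH-TAM) and siSeh1 (wild type), Seh1 in cells titled Ctrl (wild type), and Seh1 through a flag tag in cells titled iKO, given 4-OH-TAM but labelled wild type. Each group had 1 library, so no difference between the lists has a replicate check, none was tested, and the condition cannot be told apart from the library. The lists give no total of sequenced tags, so depth is unknown, and the intervals given are exact Clopper-Pearson 95% intervals that cover counting error only. A peak list does not show the cell type, and neither label was checked by it.

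Chd4 is an ATP-driven nucleosome remodeller and the catalytic motor of the NuRD complex, in which histone deacetylases (Hdac1, Hdac2), histone-binding proteins (Rbbp4, Rbbp7), Mbd, Mta and Gatad2 proteins join it. It has no sequence preference of its own that is well established, and is brought to DNA by partner factors. In the developing cortex it is known for silencing genes of other lineages and for supporting progenitor proliferation.

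The lists differed at promoters. Within 1 kb of a transcription start site (TSS) lay 391 siSCR peaks, 15% of that list (95% interval 13.7 to 16.4%), and 7 Ctrl peaks, 0.607% (0.244 to 1.25%). The siSCR promoter peaks belonged to 384 genes, of which 351 were protein-coding. This is 1.6% of the 21900 protein-coding genes of the annotation, against 0.0183% (4 genes) for Ctrl. Not one siSCR promoter peak had a Ctrl peak under 240 bp away (0 of 391; taking 3 counts as the most that a count of 0 allows, a share of up to 0.767%, with an exact upper limit of 0.939%). Over all siSCR peaks the share was 2.34% (61 of 2606), and away from promoters it was 2.75% (2.11 to 3.52%). Ctrl had 7 promoter peaks in all, so few matches at promoters were possible. The closest Ctrl peak to any siSCR promoter peak was 11749 bp away, and the median distance was 1464732.5 bp. Within the Ctrl list itself, neighbouring peaks were a median of 893275 bp apart.

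The siSCR promoter summits were sharply placed in front of the start site. Of the 391, 317 lay upstream of the TSS and 271 within 250 bp upstream, with a median of -90 bp and quartiles of -176 and -26.5 bp. They also stood high in their list. Of the 1303 siSCR peaks of highest score, 334 were at promoters, as were 56 of the first 100. Their median score was 5.15, against 3.18 for the rest of the list; the score is the authors' own, its scale is not stated, and it is compared only within a list. A repeat was named for 2 of the promoter peaks, both annotated as intron. Peaks annotated promoter-TSS, 353 in siSCR, carried no repeat name, so this count does not show how many promoter peaks lie in repeats.

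The first genes by promoter score in siSCR were, in order, Sox11, Pgk1, Mir6976, Ilf2, Denr, Snord14c, Prkaca, Kpna4, Hsp90b1 and Mir22hg. Sox11 encodes a transcription factor of newborn neurons; its peak (chromosome 12, position 27342190, 528 bp into the gene, score 59.1) was in the exon and was the highest of the list, and the nearest Ctrl peak was 3862939 bp away. Pgk1, a glycolytic enzyme, followed with a score of 27.1 at 199 bp upstream (X, 106186901). Ilf2, a double-stranded RNA-binding protein, had 19.5 at 124 bp upstream (chromosome 3, 90476077). Denr, which restarts translation, had 17.9 at 95 bp upstream. Prkaca, the catalytic subunit of protein kinase A, had 15.9 at 44 bp upstream, and Kpna4, a nuclear import receptor, 14.7 at 12 bp upstream. Hsp90b1, the Hsp90 chaperone of the endoplasmic reticulum, had 14.5 at 177 bp upstream (chromosome 10, 86705621). The other members of the first 10 were RNA genes: a microRNA (Mir6976), a small nucleolar RNA (Snord14c) and the host transcript of miR-22 (Mir22hg). The Mir6976 peak was 984 bp downstream of the TSS, inside the 1 kb limit, and its annotation was the end of a transcript and not a promoter.

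The sequences in front of these start sites are shown because the siSCR promoters had one element in common that the choice of peaks did not use, the CCAAT box, which is the recognition element of the factor NF-Y. Each is the 250 bases before the start site on the coding strand, 5′ to 3′, from RefSeq on GRCm38.p6, with matches on either strand to the CCAAT box, the GC box (GGGCGG) and the other motifs listed below in capitals. Read from the other strand the CCAAT box is ATTGG, and the GC box is likewise CCGCCC. Hsp90b1 (chr10:86705445-86705694, minus strand) held 5 CCAAT boxes, and the summit listed for siSCR was at base 74 of the window. Ilf2 (chr3:90475951-90476200, plus strand) held 3, with the summit at base 127, 4 bp from the centre of the nearest box. Prkaca (chr8:83972728-83972977, plus strand) held 4, with the summit at base 207. Derl2, a factor of protein disposal at the endoplasmic reticulum (chr11:71019304-71019553, minus strand, score 13.2), held 5, with the summit at base 101. Pgk1 (chrX:106186850-106187099, plus strand) held 1, which was 143 bp from the summit at base 52. Ehmt1, a histone H3 lysine 9 methyltransferase (chr2:24919610-24919859, minus strand, score 11.8), held 0. Derl2 and Ehmt1 were chosen after their values were seen, as a case with and a case without the box.
Hsp90b1: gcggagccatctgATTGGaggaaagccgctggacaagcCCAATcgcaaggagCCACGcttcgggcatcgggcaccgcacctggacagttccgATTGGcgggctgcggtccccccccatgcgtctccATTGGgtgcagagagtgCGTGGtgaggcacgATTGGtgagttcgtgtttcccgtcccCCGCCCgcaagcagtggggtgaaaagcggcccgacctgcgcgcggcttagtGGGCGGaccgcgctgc
Ilf2: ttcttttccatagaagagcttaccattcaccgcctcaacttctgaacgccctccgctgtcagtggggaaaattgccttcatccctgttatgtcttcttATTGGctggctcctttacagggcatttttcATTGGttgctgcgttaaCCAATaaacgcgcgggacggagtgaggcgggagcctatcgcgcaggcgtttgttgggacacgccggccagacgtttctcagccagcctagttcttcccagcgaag
Prkaca: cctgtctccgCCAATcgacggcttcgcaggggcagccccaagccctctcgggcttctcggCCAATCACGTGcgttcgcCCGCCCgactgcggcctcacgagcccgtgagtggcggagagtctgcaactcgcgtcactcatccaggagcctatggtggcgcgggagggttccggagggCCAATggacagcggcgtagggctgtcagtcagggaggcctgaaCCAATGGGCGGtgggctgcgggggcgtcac
Derl2: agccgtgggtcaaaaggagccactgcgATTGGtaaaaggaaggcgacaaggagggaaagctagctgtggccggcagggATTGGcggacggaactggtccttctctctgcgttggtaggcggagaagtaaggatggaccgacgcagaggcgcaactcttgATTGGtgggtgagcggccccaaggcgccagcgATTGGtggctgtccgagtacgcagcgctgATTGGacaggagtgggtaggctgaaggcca
Pgk1: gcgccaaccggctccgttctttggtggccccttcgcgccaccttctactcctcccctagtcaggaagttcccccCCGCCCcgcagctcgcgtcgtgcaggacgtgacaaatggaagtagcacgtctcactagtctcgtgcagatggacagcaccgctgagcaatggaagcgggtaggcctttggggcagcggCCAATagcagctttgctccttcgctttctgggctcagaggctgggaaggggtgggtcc
Ehmt1: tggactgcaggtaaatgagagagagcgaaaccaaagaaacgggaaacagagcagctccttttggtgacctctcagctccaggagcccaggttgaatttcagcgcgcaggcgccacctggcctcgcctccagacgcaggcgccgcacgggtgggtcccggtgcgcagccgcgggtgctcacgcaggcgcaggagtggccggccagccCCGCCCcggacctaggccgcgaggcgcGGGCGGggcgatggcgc

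A window was found for 306 of the 384 siSCR promoter genes. The letters CCAAT, on either strand, were in 254 of them (83%, 78.3 to 87%), against 33.8% of all 32817 windows of the table. Windows of siSCR genes were rich in CpG, with a median of 19 CpG against 6 over all windows and a GC content of 62.8% against 52.4%. Base composition moved with the list, and for that reason the 6474 windows with at least 19 CpG are given too: 29% of these held CCAAT. The GC box GGGCGG, which Sp and KLF factors bind, was in 74.5% of the siSCR windows (69.2 to 79.3%), 32.7% of all windows and 80% of the CpG-rich ones. TATAAA was in 4.9% (2.77 to 7.96%), 12.4% and 2.75% in the same order. The ETS letters CCGGAAG were in 9.48% (6.44 to 13.3%), 6.9% and 15.8%. The NRF1 letters GCATGCGC were in 3.92%, 2.25% and 5.34%, the E-box CACGTG in 9.8%, 6.02% and 9.99%, the YY1 letters AAGATGGC in 1.96%, 1.56% and 2.29%, and the CRE TGACGTCA in 0.98%, 1.55% and 3.49%. Of the single-word motifs searched, CCAAT was the one whose share in siSCR lay above both references with an interval clear of them. The ninth motif was the endoplasmic reticulum stress element, a CCAAT box followed after 9 bases of any kind by CCACG, which contains a CCAAT box by its definition. It was in 5 of the 306 windows (1.63%, 0.533 to 3.77%), against 0.113% of all windows, and the window of Hsp90b1 printed above is one of them. A match of letters is a description and does not show that a factor was bound.

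The CCAAT boxes lay close to the summits. In 225 siSCR windows the summit fell inside the window, and 205 of these held a CCAAT box, 171 of them more than one. The median distance from the summit to the nearest box was 20 bp, and 178 of the 205 (86.8%) had one within 50 bp. Measured from the middle of the window in place of the summit, the median was 29.5 bp and 152 had one within 50 bp. A GC box was in 177 of the 225 windows, and 99 of these held 2 or more. Its median distance from the summit was 43.5 bp, and 53.1% of the 177 had it within 50 bp. From the middle of the window the median was 48 bp and 95 had it within 50 bp. The distance to the nearest box shrinks as boxes become more numerous, and this was not adjusted for. The median place was -98 bp from the start site for CCAAT boxes and -91.5 bp for GC boxes, and the middle of the window lies farther upstream. The 102 windows of highest peak score held CCAAT in 90.2% of cases (82.7 to 95.2%) and the 102 of lowest score in 77.5% (68.1 to 85.1%). The same letters were in 69.3% of the promoter windows of the iKO list (66.3 to 72.2%) and 61.2% of those of siSeh1 (59.1 to 63.3%), both Chd4 lists. They were in 39.3% of those of Seh1-flag (33 to 45.9%) and 30.4% of those of Seh1 Ctrl (23.8 to 37.6%). The iKO and siSeh1 lists are longer. In the 325 iKO promoter windows of highest score the share was 86.5% (82.3 to 90%). In the 725 such siSeh1 windows it was 81.2% (78.2 to 84%). Both were below the 90.2% of the 102 highest siSCR windows, whose interval (82.7 to 95.2%) overlaps theirs. In the 325 iKO and 725 siSeh1 windows of lowest score the share was 49.2% (43.7 to 54.8%) and 39.4% (35.9 to 43.1%). The lists also have genes in common, so these shares are not independent of that of siSCR. For genes in the siSCR promoter list the share was 88.9% in iKO and 86.5% in siSeh1. For the other genes it was 64% (60.5 to 67.4%) and 57.9% (55.7 to 60.1%).

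The 7 Ctrl promoter peaks were of another kind. They were at Tmem181b-ps, Tmem254b, LOC108168459, Sec14l3, Btbd35f2, Mageb18 and Olfr1300-ps1, a set that includes 2 pseudogenes (Tmem181b-ps and Olfr1300-ps1). Of them 6 lay 406 to 870 bp inside the gene and 1 lay 644 bp upstream, with scores from 2.94 to 3.66 in a list whose median was 3.66. RefSeq windows were found for 2 of the 7 genes. Sec14l3, a lipid-binding protein (chr11:4064603-4064852, plus strand), is printed here; it held 4 CpG and no match to any of the motifs. The other one, of Mageb18, held 1 CpG, a CCAAT box and a TATAAA match.
Sec14l3: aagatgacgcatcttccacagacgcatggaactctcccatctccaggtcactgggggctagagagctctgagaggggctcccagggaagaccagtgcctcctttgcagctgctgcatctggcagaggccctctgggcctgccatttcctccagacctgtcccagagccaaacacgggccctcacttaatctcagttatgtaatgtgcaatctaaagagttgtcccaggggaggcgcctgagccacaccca

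The siSCR promoter peaks were found again in the other Chd4 lists. Of the 391, 318 had a siSeh1 peak under 240 bp away (81.3%, 77.1 to 85.1%) and 258 an iKO peak (66%, 61.1 to 70.7%). Both had one at 245, and neither at 60. For the 2215 siSCR peaks away from promoters the counts were 93 in siSeh1 (4.2%, 3.4 to 5.12%) and 84 in iKO (3.79%, 3.04 to 4.67%). At the same promoter peaks Seh1-flag had 5 and Seh1 Ctrl 0. The siSCR library is the control of siSeh1 in this design, and no source used here says whether the pair was prepared together.

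**Figure D1:**
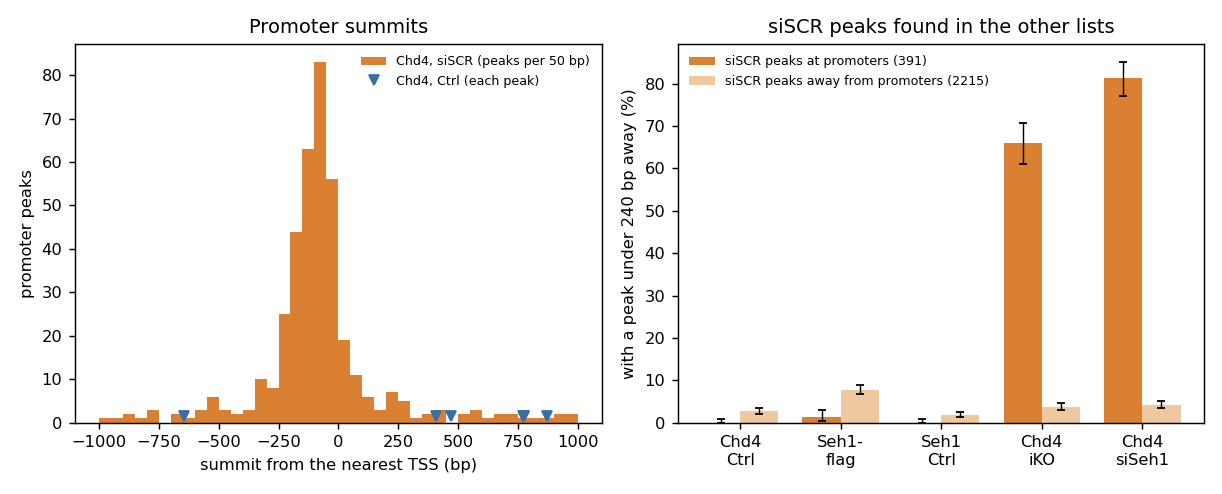
Left, number of promoter peaks (y axis) by distance of the summit from the nearest TSS in bp (x axis, negative upstream), for siSCR in bins of 50 bp and for each of the 7 Ctrl peaks as a triangle. Right, percent of siSCR peaks with a peak under 240 bp away in each other list, at promoters (391) and away from them (2215), with exact 95% intervals; at promoters it is 0% in Chd4 Ctrl, 66% in iKO and 81.3% in siSeh1.

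Over the whole lists, intergenic sequence held 73.7% of the Ctrl peaks (71.1 to 76.3%) and 58.9% of the siSCR peaks (57 to 60.8%), and introns held 23.7% and 23.4%. Over the 1147 Ctrl and 2215 siSCR peaks away from promoters, intergenic sequence held 74.2% (71.6 to 76.7%) and 69.3% (67.3 to 71.2%), and introns 23.5% (21 to 26%) and 26.8% (24.9 to 28.7%). The median distance to the nearest TSS was 86076.5 bp in Ctrl and 35100.5 bp in siSCR. More than 100 kb from any TSS lay 45.3% of the Ctrl peaks (42.4 to 48.2%) and 29.6% of the siSCR peaks (27.9 to 31.4%). The annotation label CpG island was on 19 siSCR peaks (0.729%) and 0 of the 1154 Ctrl peaks. The 0 allows up to 0.26% by 3 counts and 0.319% by the exact interval. No peak annotated promoter-TSS carried this label, so CpG islands at those promoters are not in these counts. Exons and untranslated regions held 61 siSCR peaks (2.34%, 1.8 to 3%) and 11 Ctrl peaks (0.953%, 0.477 to 1.7%). The 11 Ctrl peaks were in 11 genes. In siSCR, Chd4 itself was the one gene with at least 3: it held 7 peaks (chromosome 6, between 125101600 and 125114036), 6 of them in exons, and in Ctrl it held 0, with the nearest Ctrl peak 196846 bp away. The same gene held 8 siSeh1 peaks, 7 of them in exons, and 2 iKO peaks, 2 of them in exons. Seh1-flag and Seh1 Ctrl each had 1 peak in it, with 0 in exons.

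**Figure D2:**
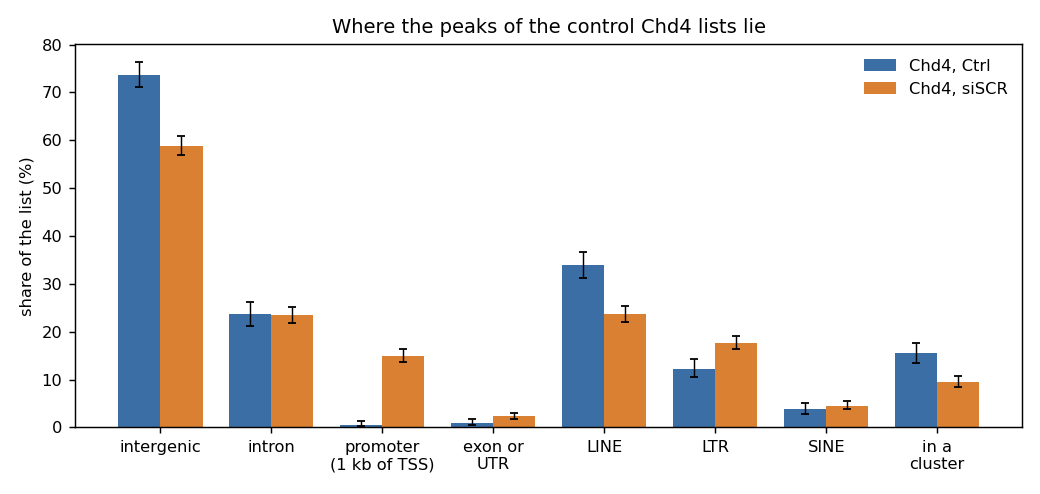
Percent of each list (y axis) in each class of sequence (x axis) for Chd4 Ctrl (1154 peaks) and siSCR (2606 peaks), with exact 95% intervals; the repeat classes LINE, LTR and SINE and the clusters cut across the other classes. Promoters hold 0.607% of Ctrl and 15% of siSCR, and LINE elements 33.9% and 23.8%.

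Repeats held 645 Ctrl peaks (55.9%, 53 to 58.8%) and 1290 siSCR peaks (49.5%, 47.6 to 51.4%). This order turned once promoters were set aside, to 56.1% (53.2 to 59%) in Ctrl and 58.1% (56.1 to 60.2%) in siSCR. The kind of repeat differed also away from promoters. LINE elements, the autonomous L1 retrotransposons for the most part, held 34.1% of such Ctrl peaks (31.3 to 36.9%) and 27.9% of such siSCR peaks (26 to 29.8%). LTR elements, the relics of endogenous retroviruses, held 12.3% (10.4 to 14.3%) and 20.9% (19.2 to 22.6%).

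By number of peaks L1Md_T led both lists, followed by L1Md_A in Ctrl and by IAPEz-int in siSCR. L1Md_T, an L1 family with copies that still move, held 105 Ctrl peaks (9.1%, 7.5 to 10.9%) and 173 siSCR peaks (6.64%, 5.71 to 7.66%), against 1.62 to 3.39% in the other 4 lists. L1Md_A held 60 (5.2%) and 98 (3.76%), against 1.04 to 2.57% in the others, and L1Md_F2 47 (4.07%) and 66 (2.53%), against 2.72 to 3.56% in the others. L1_Mus3 held 34 in each list, 2.95% of Ctrl (2.05 to 4.09%) and 1.3% of siSCR (0.905 to 1.82%), against 1.21 to 1.85% in the others. IAPEz-int, the internal part of the intracisternal A particle retrovirus, went the other way, with 18 Ctrl peaks (1.56%, 0.927 to 2.45%) and 108 siSCR peaks (4.14%, 3.41 to 4.98%). MERVL-int, a retrovirus known for its activity in the early embryo, had 1 Ctrl peak (0.0867%) and 29 siSCR peaks (1.11%, 0.747 to 1.59%). Among low-complexity sequence, AT_rich held 11 Ctrl and 2 siSCR peaks. No source used here says how reads that match several copies of a repeat were placed, and the part of this in the counts was not tested.

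Chromosome X stood apart. It held 274 of the 1154 Ctrl peaks (23.7%, 21.3 to 26.3%) and 106 of the 2606 siSCR peaks (4.07%, 3.34 to 4.9%), and from 4.72 to 7.47% of the peaks of the other 4 lists. Of the X peaks 42.7% in Ctrl and 12.3% in siSCR lay in clusters, defined as runs of at least 3 peaks with gaps of at most 10 kb. With all clustered peaks left out X still held 16.1% of Ctrl (13.8 to 18.6%) and 3.94% of siSCR (3.19 to 4.81%). On X, LINE elements held 39.8% of the Ctrl peaks and 41.5% of the siSCR peaks, and off X 32% and 23%. Chromosome Y held 1 Ctrl and 2 siSCR peaks; no source used here gives the sex of the animals. Chromosome 5 showed the opposite order, 4.25% of Ctrl (3.16 to 5.57%) and 8.83% of siSCR (7.76 to 9.98%). Many of its 230 siSCR peaks were in one region. The window from 14 to 15 Mb held 24 and that from 15 to 16 Mb held 65, with 0 Ctrl peaks in each.

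**Figure D3:**
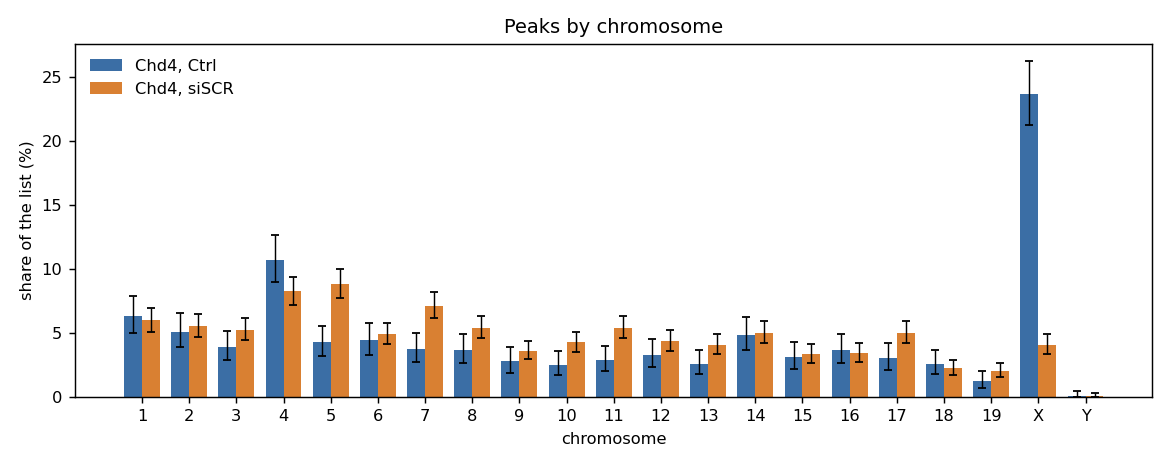
Percent of each list's peaks (y axis) on each chromosome (x axis) for Chd4 Ctrl and siSCR, with exact 95% intervals; peaks on unplaced contigs are not drawn. X holds 23.7% of Ctrl and 4.07% of siSCR, and chromosome 5 holds 4.25% and 8.83%.

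Clusters held 179 Ctrl peaks in 34 runs (15.5%, 13.5 to 17.7%) and 247 siSCR peaks in 43 runs (9.48%, 8.38 to 10.7%). Of the 34 Ctrl clusters 19 were on X, and of the 43 siSCR clusters 3 were. Counting 10 kb on each side, 20 Ctrl clusters also held a siSCR peak and 14 held none, while 12 siSCR clusters held a Ctrl peak and 31 held none. Nearly all were also populated in the Seh1-flag list, which had a peak in all 34 Ctrl clusters and in 40 of the 43 siSCR clusters. Of the 34 Ctrl clusters, iKO had a peak in 20, siSeh1 in 12 and Seh1 Ctrl in 13. Of the 43 siSCR clusters the counts were 30, 25 and 21 in the same order. Seh1-flag has 24961 peaks, iKO 21294, siSeh1 26935 and Seh1 Ctrl 20833. How many of these regions a list of such length would meet was not tested.

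Of the 5 largest Ctrl clusters 4 were on X, and all of their peaks were intergenic. The nearest TSS, by which they are named, was 28271 to 423062 bp away. The first (X, 31170510 to 31217798, nearest gene Btbd35f18) held 19 Ctrl and 5 siSCR peaks, and 16 of its 19 Ctrl peaks were in repeats. The second (X, 126747205 to 126777844, near 4932411N23Rik) held 17 and 4, with 1 of its 17 in a repeat. The third (X, 94878067 to 94917704, near Zxda, a zinc finger gene, and Spin4, a histone-reading gene) held 16 and 6. The fourth, on chromosome 4 (122019431 to 122045187, near Gm12887), held 9 Ctrl and 13 siSCR peaks, and is the one among these 5 where siSCR had more. The fifth (X, 123045819 to 123075252, near Cldn34c1) held 9 and 0. Over the whole genome, genes of the Btbd35f family, X-linked copies that encode BTB-domain proteins, were nearest to 96 Ctrl peaks (8.32%, 6.79 to 10.1%) and 22 siSCR peaks (0.844%, 0.53 to 1.28%).

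The largest siSCR clusters were elsewhere, with the chromosome 4 region again in common. On chromosome 5, the cluster at 15625907 to 15690704 (near Speer4d, Speer4cos and 4930572O03Rik) held 21 siSCR, 0 Ctrl and 49 Seh1-flag peaks. That at 14970744 to 15008174 (Gm10354 and Gm17019) held 15 siSCR and 0 Ctrl peaks, and that at 15027679 to 15061783 (Gm17019) held 10 and 0. The unplaced contig Un_JH584304 (45808 to 59862, near Pisd-ps3) held 11 and 0. In the 1 Mb window from 15 to 16 Mb of chromosome 5, siSCR had 65 peaks and Ctrl 0, while in the window from 31 to 32 Mb of X Ctrl had 47 and siSCR 13. Genes named Speer4, rodent genes of the testis found in many copies, were nearest to 30 siSCR peaks and 1 Ctrl peak. For olfactory receptor genes (Olfr) the shares were close, 1.56% of Ctrl and 1.53% of siSCR. For vomeronasal receptor genes (Vmn1r and Vmn2r) they were 0.607% (0.244 to 1.25%) and 1.61% (1.16 to 2.17%). The Btbd35f and Speer4 genes are families of similar copies, where the place of a peak among the copies is uncertain.

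**Figure D4:**
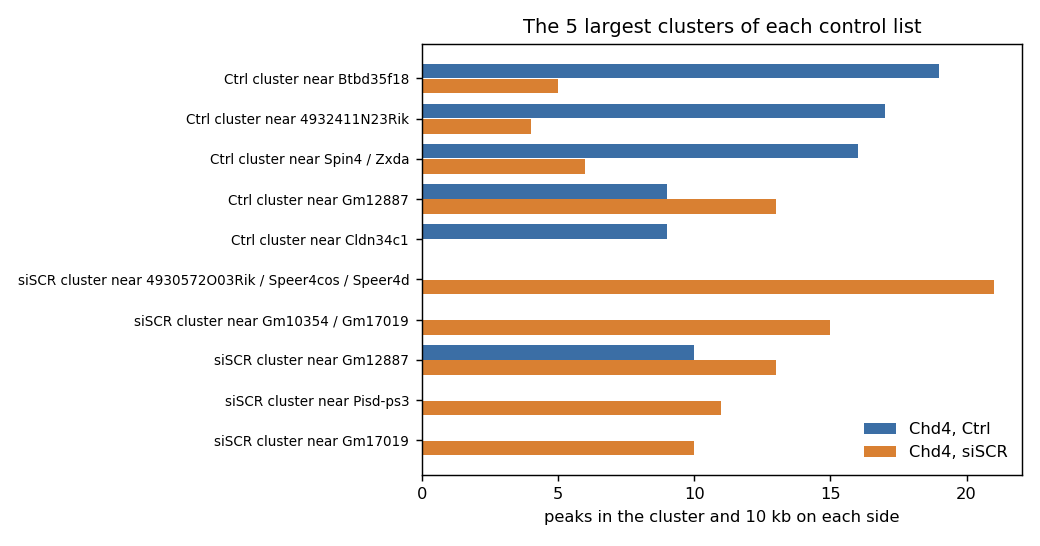
Number of Chd4 Ctrl and siSCR peaks (x axis) in the 5 largest clusters of each list and 10 kb on each side (y axis, by nearest gene). Ctrl has 19 peaks at the Btbd35f18 cluster, where siSCR has 5, and siSCR has 21 at the Speer4d cluster, where Ctrl has 0.

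Against these differences, 61 summits were shared, meaning that a Ctrl and a siSCR summit lay under 240 bp apart. That is 5.29% of the Ctrl list and 2.34% of the siSCR list, and each Ctrl summit paired with 1 siSCR summit. Of the 61 pairs 34 were under 50 bp apart, and the median was 43 bp. The count went from 44 under 100 bp to 77 Ctrl peaks under 500 bp and 94 under 1000 bp. The pairs just inside the limit were 203, 216 and 218 bp apart and those just outside 249, 263 and 272 bp. In 46 pairs the Ctrl peak was intergenic and in 13 it was intronic, 2 had no annotation, and 0 were at promoters. The nearest TSS was 1200 to 1114879 bp away, with a median of 80331 bp.

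Sharing was concentrated among the strongest Ctrl peaks. Of the 26 Ctrl peaks ranked 1 to 25 by score (with ties) 15 were shared (57.7%, 36.9 to 76.6%), of the next 107 (ranks 26 to 100) 19 were (17.8%, 11 to 26.3%), and of the 546 from rank 501 down 13 were (2.38%, 1.27 to 4.04%). In siSCR the shared peaks stood lower, with a median rank of 627 of 2606 against 84 of 1154 in Ctrl. Sharing fell with rank there too. It was 4 of the 25 siSCR peaks ranked 1 to 25 (16%, 4.54 to 36.1%) and 6 of the next 77 (7.79%, 2.91 to 16.2%). From rank 501 down it was 31 of 2023 (1.53%, 1.04 to 2.17%). Over the 61 pairs the ranks had a Spearman correlation of 0.628, a description only, since the points share their regions and libraries. Both peaks were in the upper part of their lists, above the median rank, in 39 pairs.

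**Figure D5:**
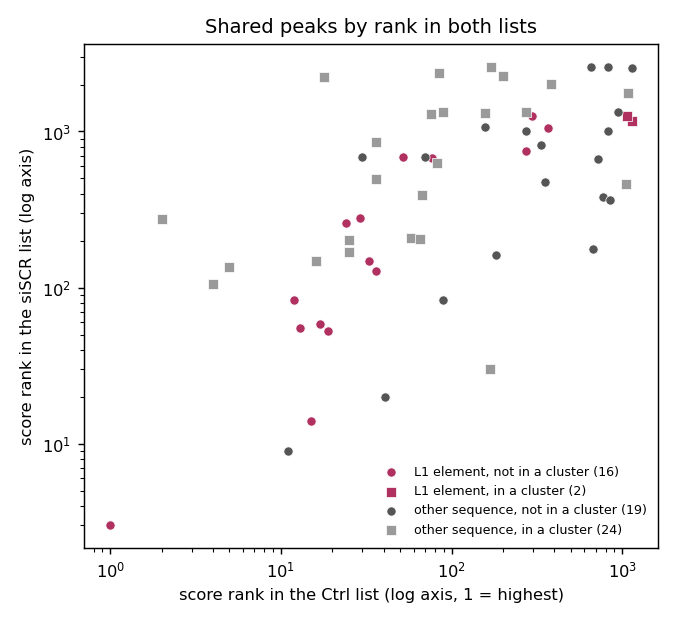
Score rank of each of the 61 shared peaks in the Ctrl list (x axis) and in the siSCR list (y axis), both log axes with 1 as the highest score; symbols mark L1 elements and clusters. The Ctnnd2 peak is at ranks 1 and 3, and 24 of the 26 pairs in a cluster of either list lie outside L1 elements.

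The shared peak of lowest mean rank was in an L1Md_T element in intron 1 of Ctnnd2, which encodes delta-catenin, a neuronal adhesion protein. Its summits were at 30222047 in Ctrl and 30222080 in siSCR on chromosome 15, with ranks of 1 and 3 and scores of 35.5 and 26.8. The next was in a B1_Mus1 element in an intron of Sfi1, a centriole protein (chromosome 11, 3172576 and 3172587), with ranks of 11 and 9. The third was intergenic, in an L1Md_A element 21153 bp from the TSS of the olfactory receptor gene Olfr596 (chromosome 7, 103288570 and 103288599), with ranks of 15 and 14. The fourth was in an intron of Snhg14, the long non-coding transcript of the Prader-Willi region (chromosome 7, 59771658 and 59771629), with ranks of 41 and 20, and lay outside repeats. The next one was in an intergenic L1Md_T element, 467735 bp from the TSS of its nearest gene, Actr3 (ranks 13 and 55). In L1Md_T elements, too, were the peaks in introns of Grid1, a glutamate receptor family gene (ranks 19 and 53), Nxph1, a neurexin ligand (17 and 58), and Lrmda (12 and 83). The remaining ones of the first 10 were intergenic and on X. The peak nearest to 4932411N23Rik (126770688 and 126770666, ranks 4 and 105) was 63316 bp from its TSS and in a cluster of both lists. The peak nearest to Zxda (94878067 and 94878054, ranks 5 and 135) was 79778 bp from its TSS and in a cluster of Ctrl alone.

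Among the 5 highest Ctrl peaks, those at Ctnnd2, Zxda and 2 of the 3 near 4932411N23Rik were shared, while the third near 4932411N23Rik (X, 126695586, score 17.4) was 57982 bp from the nearest siSCR peak. Among the 5 highest siSCR peaks, that at Ctnnd2 was shared. The others included the peaks within 1 kb of the TSS of Sox11, Pgk1 and Mir6976. The last was in a (CTGTG)n repeat in an intron of Smo, a Hedgehog pathway receptor (chromosome 6, 29748420, score 19.6), 459050 bp from the nearest Ctrl peak.

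In 30 of the 61 pairs both summits were in a repeat of the same name, and in 25 neither was in a repeat. L1Md_T accounted for 11 pairs and L1Md_A for 5, with 2 each for L1Md_F2, B1_Mus1 and IAPEz-int. Of the 105 Ctrl peaks in L1Md_T 11 were shared (10.5%, 5.35 to 18%), beside 5.29% of the whole list. Ctrl peaks in repeats were shared in 4.96% of cases (3.42 to 6.93%) and those outside repeats in 5.7% (3.85 to 8.08%). In siSCR the shares were 2.64% (1.83 to 3.66%) and 2.05% (1.36 to 2.97%). On X lay 19 pairs, on chromosome 4 lay 7 (of 124 Ctrl peaks), and on chromosomes 7 and 14 lay 5 each (of 43 and 56). The pairs on X were 6.93% of the Ctrl peaks there (4.23 to 10.6%), beside 4.77% off X (3.46 to 6.4%). In siSCR they were 17.9% (11.2 to 26.6%), beside 1.68% (1.21 to 2.26%). Clustered Ctrl peaks were shared in 23 of 179 cases (12.8%, 8.32 to 18.7%) and the other Ctrl peaks in 38 of 975 (3.9%, 2.77 to 5.31%), and 17 pairs lay in a cluster of both lists. In other lists, 30 of the 61 shared Ctrl peaks had a Seh1-flag peak under 240 bp away, 5 a siSeh1 peak, 3 a Seh1 Ctrl peak and 2 an iKO peak, and 27 had none. Over all 1154 Ctrl peaks the shares were 10.5% in Seh1-flag, 1.65% in siSeh1, 1.65% in Seh1 Ctrl and 1.21% in iKO. The Seh1-flag share was higher among strong and clustered Ctrl peaks, shared or not. It was 84.6% (65.1 to 95.6%) for ranks 1 to 25 and 31.8% (23.1 to 41.5%) for ranks 26 to 100. For all clustered Ctrl peaks it was 34.6% (27.7 to 42.1%). The part of rank and clustering in the Seh1-flag count of the shared peaks was not tested. The Ctnnd2 peak was 26 bp from a Seh1-flag summit and 833 bp from the nearest iKO summit.

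Cdkn1a and Seh1l were looked at whatever their values. Behind Cdkn1a, the cyclin-dependent kinase inhibitor p21, a cluster reaching to Rab44 (chromosome 17, 29103034 to 29108440) held 5 Ctrl and 4 siSCR peaks, and 3 of them were shared pairs. Cdkn1a itself held 0 peaks in both lists, with the nearest Ctrl summit 2312 bp and the nearest siSCR summit 2223 bp from the gene. Seh1l, which encodes Seh1, held 0 Ctrl peaks and 1 siSCR peak, in an exon. It also held 3 siSeh1 peaks, 3 of them in exons, and 0 iKO peaks. Seh1-flag had 2 peaks in it, 1 of them in an exon, and Seh1 Ctrl had 1, in an exon.

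By nearest gene, whatever the distance, 291 genes were named in both lists, 37.8% of the 770 Ctrl genes (34.4 to 41.3%) and 14.6% of the 2000 siSCR genes (13 to 16.2%). With peaks within 10 kb of the TSS alone 17 genes were common to the lists, 18.3% of 93 and 2.47% of 689. Besides Cdkn1a and Rab44 these were mostly predicted or multicopy genes, such as Btbd35f2 (12 Ctrl and 4 siSCR peaks in all), Gm2837 (9 and 4) and Tmem181b-ps (5 and 9).

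Of 11 gene lists, 5 had promoter peaks in siSCR and 0 had any in Ctrl. Of 35 cell cycle genes 4 had one in siSCR, the mitotic kinase gene Aurka, the replication helicase gene Mcm5, and E2f1 and E2f3, factors of S-phase entry. Of 15 NuRD genes Mbd3 and Gatad2a had one, both subunits of the complex of Chd4 itself. Of 26 Polycomb and BAF genes Ezh2 had one, of 25 cyclin-dependent kinase inhibitors and p53 targets Cdkn2d, and of 28 neurogenic and neuronal factors Sox11. The lists of 15 Chd4-recruiting and partner factors, 14 oligodendrocyte, 14 astrocyte, 14 microglia and endothelial genes, 27 nucleoporins and 30 ribosomal protein genes had 0. Over all protein-coding genes the share with a siSCR promoter peak was 1.6%, and with a Ctrl promoter peak 0.0183% (4 genes), as given above. At that Ctrl share, a count of 0 in lists of this size says nothing about their members.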

How the data were processed

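The deposited files are peak lists of 6 ChIP-seq libraries, 1 per group, annotated with HOMER annotatePeaks against mm10, per the file headers. The submitters' processing notes name Bowtie2 and HOMER, with no version, and the human builds hg18 and hg38. Not given in the sources used here are the peak caller, its threshold, the input, the handling of reads with several matches and any pooling. The peak score deposited by the authors has no stated scale and was used only to rank peaks within a list. The other deposited measure, per the file headers, was the distance of each peak to the nearest TSS in bp. In the Chd4 lists each peak is a summit of 1 bp; the intervals of the Seh1 Ctrl list were taken at their centre.

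Peaks were shared when summits lay under 240 bp apart; bedtools 2.31.1 gave the same 61, and the code was tested on simulated lists with known answers. Clusters, promoters and repeats were counted in Python 3.11.15 with pandas 2.3.3, numpy 2.4.6 and scipy 1.17.1 (exact Clopper-Pearson intervals), and figures drawn with matplotlib 3.10.9. RefSeq tables of GRCm38.p6, the assembly of mm10, gave gene types, gene spans and promoter windows, and 99.6% of gene identifiers matched. Genes were named by a rule: the 10 shared peaks of lowest mean rank, the 5 highest peaks and 5 largest clusters of each list, the promoter genes of Ctrl and the first 10 of siSCR, leading repeat families, genes with at least 3 exon peaks, members of 11 gene lists with promoter peaks (1 further list is not reported here), and Chd4, Seh1l and Cdkn1a. The 5 highest Ctrl peaks were Ctnnd2, 3 peaks near 4932411N23Rik and 1 near Zxda. The 5 highest siSCR peaks were Sox11, Pgk1, Ctnnd2, Mir6976 and an intron of Smo. Members and lists were chosen with earlier results of these data known. The shares by chromosome, the 1 Mb windows and the motifs were chosen after the lists had been seen. No test was run, because each group has 1 library.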

Additional observations from a re-analysis of the deposited data

How the results depend on the processing

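Of 63 recomputed shares 29 stayed inside the 95% interval of the value given above. Shared peaks were 3.81% of Ctrl and 1.69% of siSCR under 100 bp, 8.15% and 3.57% under 1000 bp, 3.49% and 1.41% without the 43 bins of 200 kb with at least 5 peaks, and 3.73% of each list with siSCR cut to the length of Ctrl. On autosomes alone they were 1.63% of siSCR, and among the higher-scoring peaks of each list 6.76% of Ctrl. Clustered peaks were 0.52% of Ctrl and 0.614% of siSCR with gaps of at most 1 kb, where the order of the lists turned, 10.5% and 6.56% at 5 kb, 25.1% and 14.2% at 50 kb, and 9.1% and 6.33% for runs of at least 5 peaks. Promoter peaks were 0.0867% of Ctrl and 13.5% of siSCR by the promoter-TSS annotation, 4.42% and 21% within 5 kb, and 25.6% among the higher-scoring siSCR peaks. Repeat peaks were 52% and 47% without satellite, simple and low-complexity repeats, and 43.1% among the higher-scoring siSCR peaks. Genes named in both lists were 18.3% of Ctrl and 2.47% of siSCR with peaks within 10 kb of the TSS. The settings that follow were added after seeing the data: repeat peaks were 58.1% of siSCR away from promoters, where the order turned, X held 16.1% of Ctrl without clustered peaks and 17.4% with 1 peak per cluster, and 4.91% of the higher-scoring siSCR peaks and 2.36% of siSCR outside repeats, and CCAAT was in 77.1% of siSCR windows cut to the last 150 bases. Over these settings the order of the lists was kept in 17 cases and turned in the 2 named. The cause of these shifts was not tested. Merging close summits changed no value, since no list held summits under 240 bp apart. No paired analysis was possible because each group has 1 library and no result comes from a test. Depth is unknown, so a peak absent from a list is not shown to be absent from the cells.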
